A study of Mus musculus with 8 samples.

Results

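MHC class I molecules are built from a polymorphic heavy chain, the light chain beta-2 microglobulin and a peptide, and they show that peptide to CD8 T cells and natural killer cells. The peptides are cut by the proteasome, moved into the endoplasmic reticulum by the TAP transporter and fitted into the heavy chain with the help of tapasin. Interferon-gamma is known to raise nearly every component of this route, and in the small intestine epithelial cells display class I molecules to the lymphocytes that lie between them.

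The genes described here are the heavy chains H2-Bl, H2-K1, H2-D1 and H2-T23, the light chain B2m, the transporter and loading genes Tap1, Tap2 and Tapbp, and the immunoproteasome subunits Psmb8 and Psmb9. Their probes were found by the gene name that the scanner files give, or by an older alias of it. This gave 17 of 41174 probes on the array, for 9 of the 10 genes. H2-D1 had 0 probes under that name. H2-Bl, H2-K1 and B2m had 3 probes each, Tapbp and Psmb8 had 2 each, and H2-T23, Tap1, Tap2 and Psmb9 had 1 each. The genes were selected on their ratios on these same deletion arrays in earlier work, so those ratios are given as a description and no test is read from them.

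Two-colour Agilent whole mouse genome arrays had been hybridised with 4 pairs of RNA from mouse intestinal epithelium, each pair on 2 arrays with the dyes swapped. In 2 pairs, RNA from Ah-Cre/Ascl2floxed/floxed mice, called deleted here, was set against RNA from Ah-Cre/Ascl2floxed/wt mice, called control, with 1 pair from day 3 and 1 from day 5 after induction. Both genotypes thus carried the Cre and at least 1 floxed allele, although the sample names call the control wild type. The Ah-Cre transgene is driven by an inducible Cyp1a1 promoter that is active in the epithelium. In the other 2 pairs, GFPhi cells were set against GFPlo cells, sorted by green fluorescence from Lgr5-EGFP-ires-CreERT2 mice, with 3 mice pooled in each sort. The sources used here do not state how many mice gave each deleted or control RNA, nor their strain or MHC haplotype. A value below is the log2 ratio of deleted over control, or of GFPhi over GFPlo, and both arrays of a pair together count as 1 replicate, so that each comparison had n = 2 RNA pairs.

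The arrays carried signal well above background for 54.6% to 66.4% of probes in the deletion RNAs and for 35.1% to 44.5% in the sorted RNAs. Ascl2, the deleted transcription factor, was at -1.33 on day 3 and -1.32 on day 5, below 0 on all 4 arrays. Lgr5, the stem cell receptor whose promoter drives the GFP, was at 2.10 and 1.61 in the 2 sorts. All 17 member probes were well above background in at least 1 of the RNAs in the deletion, and 15 were in the sorts, where 2 H2-Bl probes were not. No member spot was saturated.

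The promoters of 8 of the 10 genes were read from RefSeq (GRCm38.p6), as windows of 300 bases from 250 before to 50 after the start site. The 4 windows below are shown because the heavy chain and light chain genes H2-K1, H2-T23 and B2m had like ratios in the deletion, whereas Tap1 and Psmb9, which start 226 bases apart on opposite strands and share 275 bases of their windows, had like ratios of another kind. Capitals mark a match to GAAANNGAA, the core of the interferon-stimulated response element, to GGGGATTCC, the core of the site of NF-kB, or to TTCNNNGAA, the gamma-activated site, each searched on both strands.
H2-K1 (chr17:34000298-34000597, minus strand): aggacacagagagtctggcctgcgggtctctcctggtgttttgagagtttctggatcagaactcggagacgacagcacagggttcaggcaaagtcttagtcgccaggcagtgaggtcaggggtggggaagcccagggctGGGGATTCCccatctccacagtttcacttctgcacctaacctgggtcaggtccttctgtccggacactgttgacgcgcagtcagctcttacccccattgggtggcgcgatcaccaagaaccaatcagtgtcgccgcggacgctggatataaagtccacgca
H2-T23 (chr17:36032652-36032951, minus strand): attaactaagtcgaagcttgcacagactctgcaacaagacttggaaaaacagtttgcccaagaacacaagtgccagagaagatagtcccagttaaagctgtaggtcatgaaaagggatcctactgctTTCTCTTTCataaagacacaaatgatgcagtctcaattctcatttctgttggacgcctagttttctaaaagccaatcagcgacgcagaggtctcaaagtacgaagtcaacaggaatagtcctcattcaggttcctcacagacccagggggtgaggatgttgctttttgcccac
B2m (chr2:122147437-122147736, plus strand): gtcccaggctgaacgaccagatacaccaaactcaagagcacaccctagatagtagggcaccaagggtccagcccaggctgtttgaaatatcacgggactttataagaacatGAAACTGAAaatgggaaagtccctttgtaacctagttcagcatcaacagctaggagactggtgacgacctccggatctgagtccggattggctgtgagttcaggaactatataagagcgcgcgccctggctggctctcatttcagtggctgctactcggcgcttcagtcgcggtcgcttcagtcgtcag
Tap1, shared with Psmb9 (chr17:34187306-34187605, plus strand): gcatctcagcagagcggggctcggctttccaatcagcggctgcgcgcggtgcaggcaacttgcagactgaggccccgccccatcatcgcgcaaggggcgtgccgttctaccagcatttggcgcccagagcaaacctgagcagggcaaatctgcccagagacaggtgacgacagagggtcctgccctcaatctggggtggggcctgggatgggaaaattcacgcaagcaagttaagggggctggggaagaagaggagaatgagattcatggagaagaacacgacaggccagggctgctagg
The interferon core was found in the windows of H2-T23 and B2m and in 8.56% of all 32851 promoter windows. The NF-kB letters were found in H2-K1 and H2-D1 and in 0.25% of all windows. The gamma-activated letters were found in the window of Psmb8 and in 8.3% of all windows. The windows of Tap1, Psmb9 and Tapbp held none of these 3 sets of letters. For any gene, a window without a match lacks only these exact letters, and looser forms of the sites were not searched. Whether any of these letters, or the stretch shared by Tap1 and Psmb9, has a part in the ratios was not tested.

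H2-Bl, a heavy chain gene named for the blastocyst, had the widest ratios of all members, with opposite signs on the 2 days. RefSeq (GRCm38.p6) types it as a transcribed pseudogene. Its 3 probes lie on the minus strand of chromosome 17, in mm8 coordinates at chr17:35688197-35688256 (A_51_P247114), chr17:35688227-35688286 (A_52_P560113), which overlap each other, and chr17:35691549-35691795 (A_52_P350519). Which exons of that build these positions fall in was not analysed here. On day 3, A_51_P247114 had processed signals of 134590 and 147276 in deleted RNA on the 2 arrays, against 4391 and 3574 in control RNA. On day 5 its signals were 19400 and 16000 in deleted RNA, against 60700 and 53000 in control RNA. The deleted RNA was thus the brighter on both arrays of day 3 and the control RNA on both arrays of day 5. Signals of different slides were not scaled to each other, so the days are compared below through their ratios.

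The log2 ratio of A_51_P247114 was 5.10 and 5.28 on the day 3 arrays and -1.61 and -1.78 on the day 5 arrays. This is 36.5-fold higher in deleted than in control RNA on day 3 and 3.24-fold lower on day 5. The overlapping probe A_52_P560113 had a ratio of 4.22 on day 3 and -1.53 on day 5. The third probe, A_52_P350519, had a ratio of 3.45 on day 3 and -1.34 on day 5. All 3 probes therefore had opposite signs on the 2 days on each of the 4 arrays, and they ranked 1st, 3rd and 13th from the top of the 23127 probes tested by their day 3 ratio.

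In the sorted cells 2 of the 3 probes were not well above background in any RNA, with signals of A_51_P247114 from 9.65 to 36.5 in GFPhi cells and from 15.1 to 42.9 in GFPlo cells. The probe A_52_P350519 was above background on all 4 sort arrays, with 1118 to 1456 in GFPhi cells and 1143 to 1632 in GFPlo cells. Its ratio was -0.15 in sort 1 and -0.09 in sort 2. The 3 probes thus gave 1 answer in the deletion and differed in the sorts in whether they gave signal at all.

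**Figure D1:**
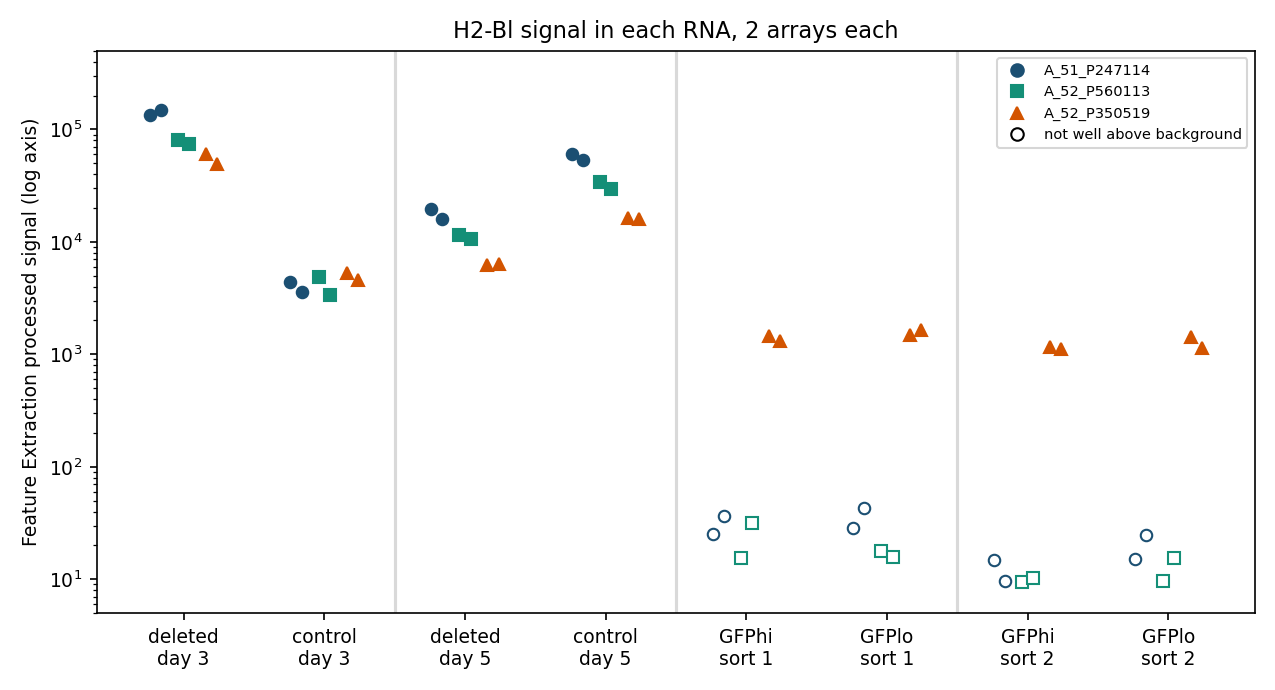
Feature Extraction processed signals of the 3 H2-Bl probes (vertical axis, log scale) in each RNA, with both arrays of an RNA pair side by side. Filled points were well above background and open points were not. Each deleted or GFPhi RNA should be compared with the RNA to its right, which was on the same arrays: on day 3 the deleted RNA reached 134590 and 147276 for A_51_P247114 against 4391 and 3574 in control RNA, and on day 5 the control RNA was the brighter.

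The heavy chains H2-K1 and H2-T23 were above 0 on both arrays of day 3 and near 0 on day 5. H2-K1 encodes a classical heavy chain that presents peptides to CD8 T cells. Its probe with 10 spots, A_51_P198434 (mm8 chr17:33606564-33606623, minus strand), had signals of 342878 and 280286 in deleted RNA, against 169292 and 153051 in control RNA, on day 3. Its ratios were 0.74 and 1.07 on the day 3 arrays and 0.12 and -0.24 on the day 5 arrays. The mean was 1.87-fold higher in deleted RNA on day 3, and the day 5 arrays lay on both sides of 0. The other 2 H2-K1 probes had ratios of 0.74 and 0.61 on day 3, and of -0.19 and -0.04 on day 5.

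H2-T23 encodes Qa-1, a heavy chain of little variation that is read by inhibitory receptors of natural killer cells. Its single probe, A_51_P237754, had signals of 214922 and 179519 in deleted RNA, against 133603 and 109414 in control RNA, on day 3. The ratios were 0.44 and 0.84 on the day 3 arrays, then 0.03 and -0.18 on the day 5 arrays. Class I heavy chain genes are close copies of each other, and the probe sequences were not used here, so signal from one family member on the probe of another was not tested. Heavy chain genes also differ in sequence between mouse strains, and whether the deleted and control mice carried alleles that the H2-Bl, H2-K1 and H2-T23 probes bind equally was not tested.

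B2m, on chromosome 2, encodes the light chain that every class I heavy chain needs at the cell surface. Its probe with 10 spots, A_51_P129006 (mm8 chr2:121844230-121844286, plus strand), had signals of 28903 and 31314 in deleted RNA, against 20940 and 18848 in control RNA, on day 3. Its ratios were 0.46 and 0.71 on the day 3 arrays, then -0.08 and 0.00 on the day 5 arrays. The spots of this probe differed among themselves by an SD of 0.03 to 0.05 on the day 3 arrays, less than the 2 arrays differed from each other.

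A second B2m probe, A_51_P129012, had a ratio of 0.57 on day 3 and 0.02 on day 5. The third, A_52_P105594, had signals of 1688 and 1812 in deleted RNA on day 3, against 1328 and 1352 in control RNA, and lies at chr2:121840304-121840363 in mm8 under another accession. Its ratio was 0.34 on day 3 and 0.55 on day 5, above 0 on all 4 arrays.

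Tapbp encodes tapasin, which bridges the heavy chain and the TAP transporter. Its probe A_51_P304500 (mm8 chr17:33539531-33539590, plus strand) had signals of 86598 and 81570 in deleted RNA, against 53386 and 52316 in control RNA, on day 3. The ratios were 0.62 and 0.71 on the day 3 arrays, then 0.09 and 0.06 on the day 5 arrays. The dimmer probe A_52_P684830 had a ratio of 0.36 on day 3 and -0.04 on day 5. Tapbp was thus above 0 on every day 3 array with both probes, as H2-K1, H2-T23 and B2m were.

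The TAP transporter genes did not share this pattern. Tap1 encodes one chain of the transporter, and its probe A_51_P100327 (mm8 chr17:33804121-33804180, plus strand) had signals of 2889 and 2441 in deleted RNA, against 3230 and 3364 in control RNA, on day 3. On day 5 it had 1060 and 1200 in deleted RNA, against 866 and 916 in control RNA. The ratios were -0.16 and -0.47 on the day 3 arrays, then 0.31 and 0.33 on the day 5 arrays. Tap1 was thus below 0 on both day 3 arrays and above 0 on both day 5 arrays. Tap2, the partner chain, had 1 array on each side of 0 on both days, with mean ratios of 0.07 and 0.06.

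Psmb9 encodes a catalytic subunit that replaces Psmb6 in the immunoproteasome. Its probe A_51_P369803 (mm8 chr17:33792517-33792576, minus strand) had signals of 61988 and 55181 in deleted RNA, against 71380 and 87189 in control RNA, on day 3. On day 5 it had 43100 and 45800 in deleted RNA, against 30600 and 35200 in control RNA. The ratios were -0.07 and -0.60 on the day 3 arrays, then 0.55 and 0.25 on the day 5 arrays. Tap1, with which Psmb9 shares 275 bases of its promoter window, had the same signs. Whether the shared stretch has a part in these ratios was not tested.

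Psmb8, which replaces Psmb5, had ratios of 0.16 and -0.02 for its 2 probes on day 3. On day 5 these probes were at 0.26 and 0.29, above 0 on both arrays, but at -0.03 and 0.01 with ratios centred on the array median in place of loess. Of the 17 member probes, 13 were above 0 on both arrays of day 3, where 37.8% of all probes tested were. Below 0 on both were 2 of 17, where 40.5% of all probes were. On day 5, 6 of 17 were above 0 on both arrays and 4 of 17 below 0 on both, where 32.5% and 33.4% of all probes were. The 3 H2-Bl probes were at least 2-fold different on each day, as were 3.95% of all probes on day 3 and 1.89% on day 5. Above 0 on all 4 arrays were 3 of 17, where 12.4% of all probes were. The probes with opposite signs on all arrays of the 2 days were the 3 of H2-Bl, A_52_P50496 of H2-K1, Tap1 and Psmb9, which is 6 of 17, where 28% of all probes had them.

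**Figure D2:**
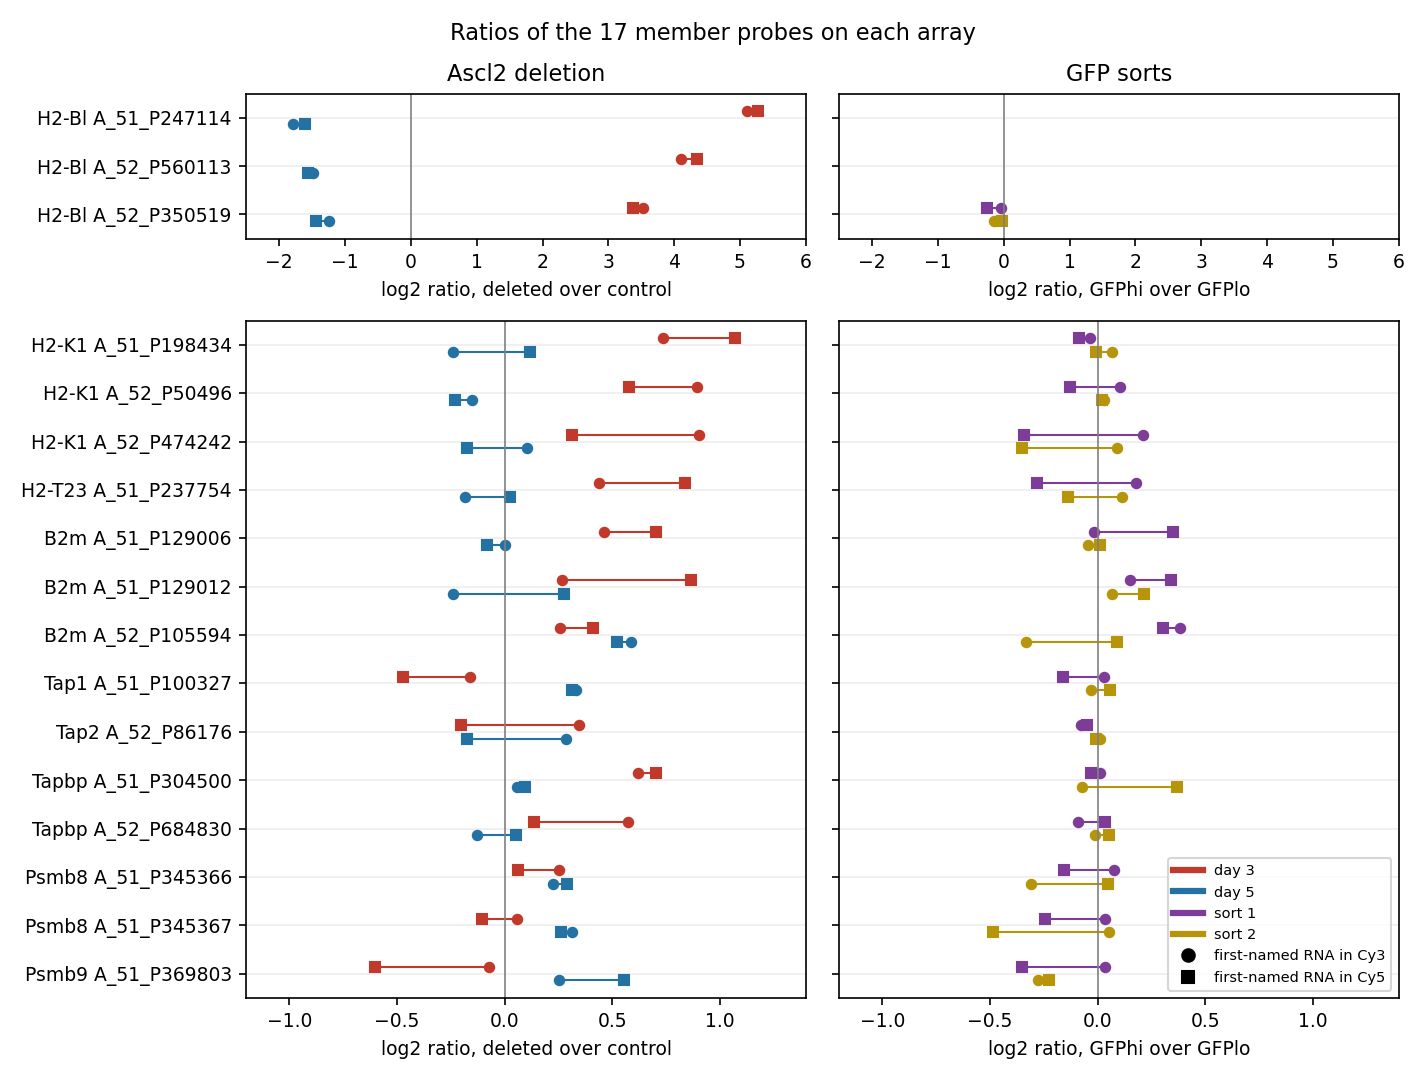
Log2 ratio of each of the 17 member probes on each array (horizontal axis), deleted over control on the left and GFPhi over GFPlo on the right. Circles and squares are the arrays with either dye order, joined by a line within an RNA pair; the H2-Bl probes have their own scale, and the 2 that were not well above background in the sorts are not drawn there. On day 3 the heavy chain, B2m and Tapbp probes lie right of 0 and Tap1 and Psmb9 left of it, and in the sorts all lie within 0.5 of 0.

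Over the 17 probes the median ratio was 0.58 on day 3 and -0.04 on day 5, against -0.01 and 0.00 over all 23127 probes tested. Without the 3 H2-Bl probes the medians were 0.46 and 0.04. The mean over the 2 days had a median of 0.28. In limma's fit over the 4 RNA pairs, 0 of the 17 probes passed an adjusted p of 0.05 for the mean of the 2 days, where 0.00432% of all probes did, and 2 of 17 passed an unadjusted p of 0.05, where 13.9% did. In a fit of the difference between the days 13 of 17 member probes passed an adjusted p of 0.05, where 38.1% of all probes did. The members were selected on these ratios, so nothing is read from this count. Since each day was 1 RNA pair, the spread in that fit came from the 2 sorts alone, and with ratios centred on the array median in place of loess 0 of 17 and 0% of all probes passed.

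In the sorted cells the members lay close to 0. The median over 15 probes was -0.02, against 0.00 over the 14489 probes tested. Psmb9 had the lowest mean, -0.20 ± 0.07 (SD, n = 2), with ratios of -0.16 and -0.25 in the 2 sorts. The highest was B2m probe A_51_P129012 at 0.19 ± 0.07 (SD, n = 2), above 0 on all 4 arrays, as 1 of 15 members and 16.1% of all probes were. The B2m probes A_51_P129006 and A_52_P105594 did not keep 1 sign. They were at 0.17 and 0.35 in sort 1 and at -0.02 and -0.12 in sort 2. In limma's fit 0 of 15 probes passed an adjusted p of 0.05, where 0% of all probes did, and 0 of 15 an unadjusted p of 0.05, where 6.45% did. The spread in that fit was shared with the deletion, so it held the difference between day 3 and day 5. With the sorts fitted alone, 0 of 15 member probes and 689 of the 14489 probes tested passed an adjusted p of 0.05. H2-K1, H2-T23, Tap1, Tap2 and Tapbp had mean ratios from -0.10 to 0.07. The Psmb8 probes had mean ratios of -0.08 for A_51_P345366 and -0.16 for A_51_P345367.

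The other heavy chains had a median of 0.03 in the sorts, from -0.09 for H2-T3 to 0.10 for H2-Q2. The constitutive proteasome was below 0 in the mean of the sorts in 14 of 14 genes, as were 5212 of all 10436 genes tested. The median was -0.14, from -0.29 for Psma7 to -0.02 for Psmb7. In sort 2, 4 of 14 were above 0. Below 0 on all 4 arrays were 4 of 14, and 1795 of the 10436 genes. Psmb10 was at -0.24. The 5 peptide loading genes measured had a median of -0.18, from -0.45 for Calr to 0.09 for Erap1. The sorts differed, with a median of -0.01 and 2 of 5 above 0 in sort 1, and -0.35 and 0 of 5 in sort 2. Of the interferon-gamma genes, 5 were measured, from -0.11 for Irgm1 to 0.41 for Tgtp1. The epithelial genes were below 0 in the mean in 6 of 6 and on all 4 arrays in 4 of 6, and 1 was above 0 in sort 2. Their median was -0.23, with Krt20, a marker of differentiated cells, lowest at -0.91.

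Other class I heavy chains were measured by the probes of 10 genes, counting the brightest probe of each. Their median was 0.75 on day 3 and -0.03 on day 5, and 9 of 10 were above 0 on day 3. H2-T3, the thymus leukaemia antigen, which gut epithelium displays to CD8 cells, had ratios of 1.90 and 1.44 on day 3 and of -1.14 and -0.95 on day 5. H2-Q5 was at 1.32 on day 3 and -0.53 on day 5, and H2-Q10 at 1.44 and -0.59, while the 5 H2-Q10 probes differed among themselves, from 0.28 to 2.21 on day 3. H2-M3, which presents formylated peptides, was the 1 gene below 0 on day 3, at -0.55, and was at 0.28 on day 5. Opposite signs on the 2 days were therefore seen in several heavy chains besides H2-Bl, with smaller ratios.

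The positions of the probes were set beside these values, with a stretch of chromosome 17 from 33 to 37 Mb (mm8) that was chosen after the H2-Bl values were seen. Of 226 probes tested there, 12.4% were at least 2-fold different on day 3, against 3.76% on the rest of chromosome 17 and 3.95% of all probes. On day 5 the shares were 2.21% there and 1.89% of all probes. Of 28 probes with class I heavy chain names in the stretch, members included, 26 were above 0 on day 3 and 10 were at least 2-fold higher, where 49% and 1.89% of all probes tested were. The counts for the stretch include member probes, which were selected on these ratios. Without the members, 19 of 21 class I heavy chain probes were above 0 and 7 were at least 2-fold higher. Of the other 198 probes, 12 were at least 2-fold higher and 6 at least 2-fold lower, among the latter the heat shock gene Hspa1a at -3.06. The highest of the 12 was LOC633417, beside the H2-T3 probe, at 2.50 on day 3 and -1.05 on day 5. Near H2-Bl, NAP027924-1 was at 1.24 and -0.51, and ENSMUST00000079918 at 1.15 and -0.48. The 12 also held the class II genes H2-Aa, at 1.71 on day 3 and 0.10 on day 5, and H2-Ab1, at 1.10 and -0.07.

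**Figure D3:**
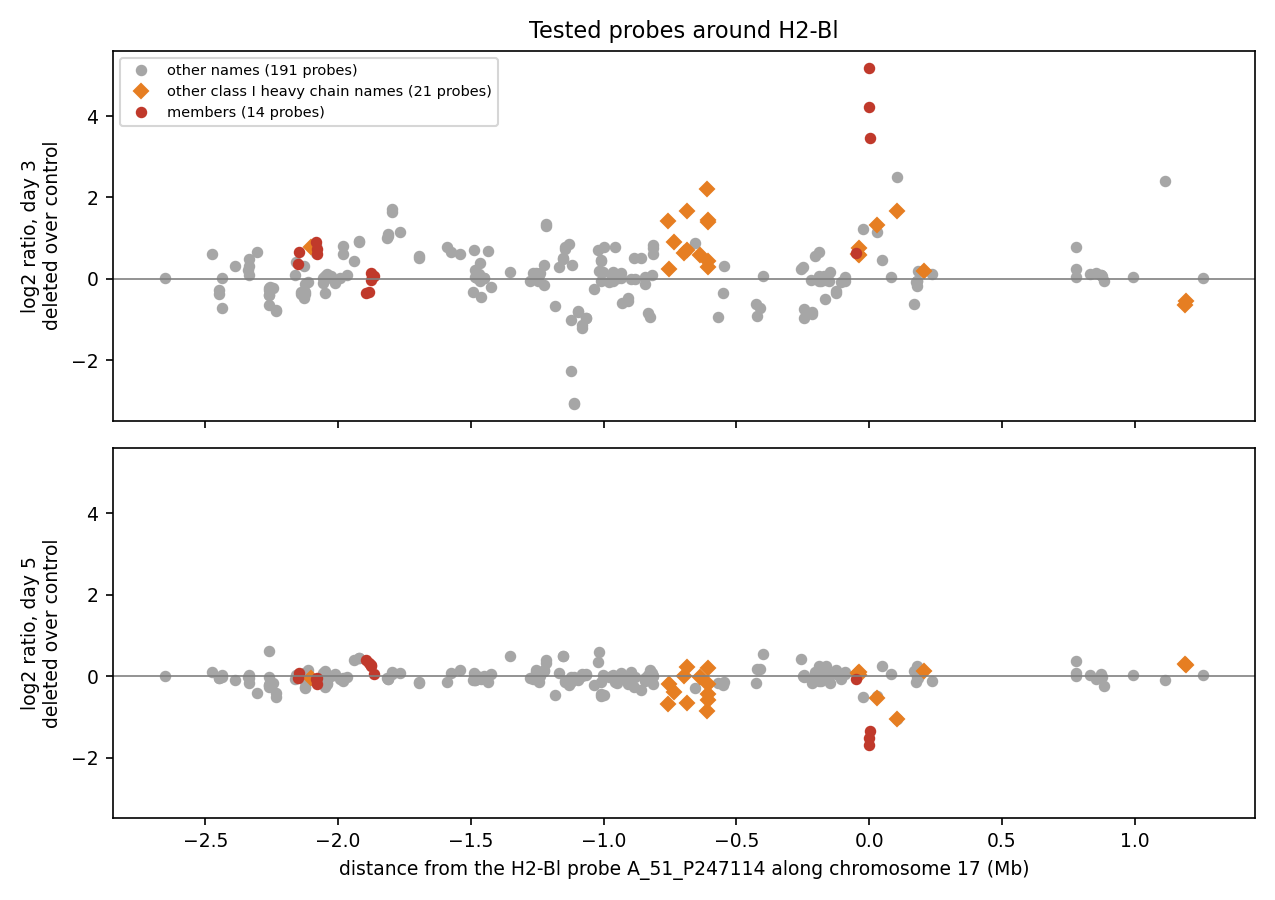
Log2 ratio of deleted over control on day 3 (top) and day 5 (bottom) for the 226 probes tested in the stretch of chromosome 17 around H2-Bl, by distance from the H2-Bl probe A_51_P247114 in Mb. The 3 H2-Bl probes stand at 0 on the horizontal axis, at 3.45 to 5.19 on day 3 and at -1.70 to -1.34 on day 5, and the class I heavy chain probes (diamonds) lie mostly above 0 on day 3.

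A chosen list of genes known to respond to interferon-gamma, without the members, was set beside these values. Most genes of this list had ratios of the opposite sign to H2-K1 and H2-T23 on day 3. Whether interferon-gamma has a part in any of these ratios was not tested. Of 11 measured, 2 were above 0 on day 3 and 8 on day 5, with medians of -0.97 and 0.38. The GTPase gene Igtp was at -2.02 on day 3, Tgtp1 at -1.99 and Irgm1 at -1.76, and the day 5 values were 0.68, 0.67 and 0.01 in the same order. Ubd, a ubiquitin-like gene in the MHC stretch, was at 2.41 on day 3 and -0.09 on day 5, on the side of the heavy chains. Tap1 and Psmb9 had the signs of Igtp and Tgtp1 on both days. These signs were not particular to that list. Of the 14 constitutive proteasome genes, 0 were above 0 on day 3 and 11 on day 5.

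Of the 18 regulators measured, 10 were above 0 on each day, with a median of 0.04 on both. The receptor chains Ifngr1 and Ifngr2 were at 0.67 and 0.78 on day 3 and at 0.06 and -0.27 on day 5. Irf1, a transcription factor of class I genes, was at -0.23 on day 3 and 0.14 on day 5. Socs1, an inhibitor of interferon signalling, was at -0.52 on day 3 and 1.12 on day 5. Nlrc5, the transactivator of class I genes, had 0 probes under that name. None of these lists had a gene that passed an adjusted p of 0.05 for the mean of the 2 days.

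The constitutive 20S proteasome was below 0 on day 3 in 14 of 14 genes, with a median of -0.39, and was at a median of 0.07 on day 5. Psmb5, Psmb6 and Psmb7, whose places Psmb8, Psmb9 and Psmb10 take, were at -0.25, -0.19 and -0.40 on day 3. Psmb10 was at -0.16 on day 3 and 0.21 on day 5, with 1 array on each side of 0 on both days. The proteasome activator genes Psme1 and Psme2 were at 0.06 and 0.04 on day 3. Of 6 further genes of peptide loading in the endoplasmic reticulum, 2 were above 0 on day 3 and 6 on day 5. The chaperone Calr was lowest on day 3, at -0.67. The class I-like genes Fcgrt, Cd1d1 and Hfe were at 0.24, 0.05 and -0.22 on day 3.

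**Figure D4:**
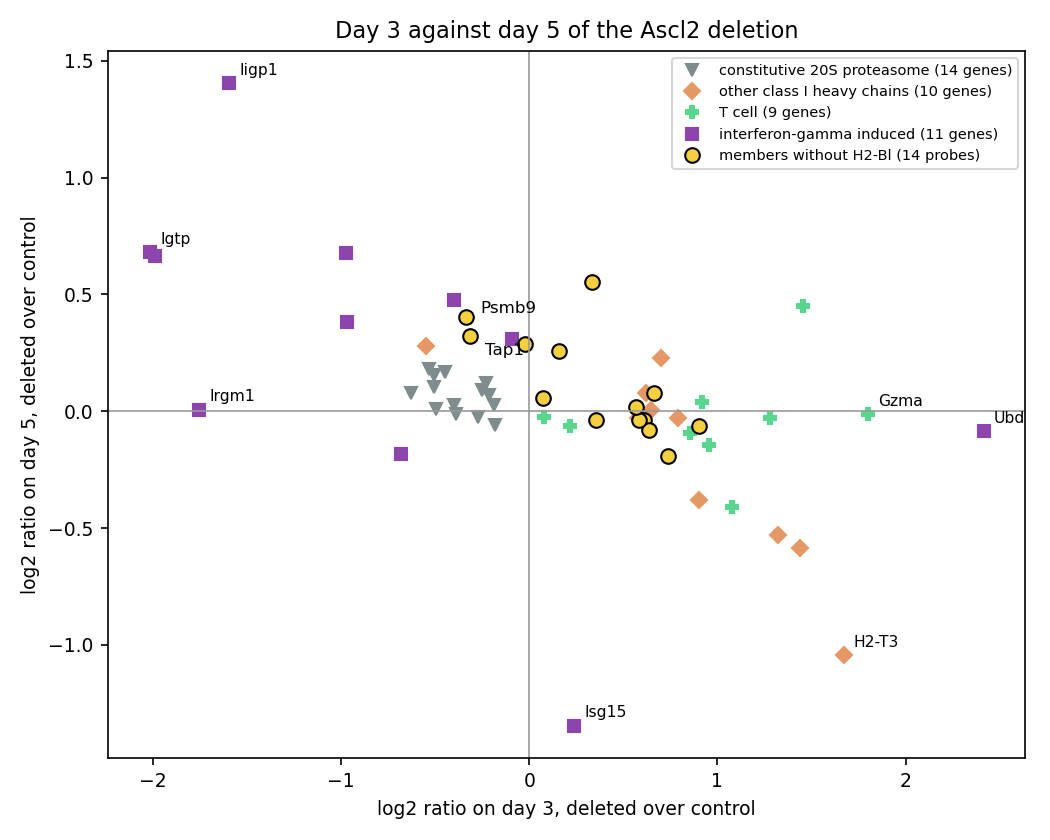
Log2 ratio of deleted over control on day 3 (horizontal axis) against day 5 (vertical axis). Members without H2-Bl are shown by probe (circles), and the genes of 4 lists by their brightest probe. Tap1 and Psmb9 lie in the upper left with Igtp, Iigp1 and 11 of the 14 constitutive proteasome genes. The remaining members lie right of 0 or close to it.

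Markers of other cell types differed between deleted and control RNA, on each day in a different way. Of 9 T cell genes, 9 were above 0 on day 3, from 0.08 for Cd2 to 1.80 for Gzma, with a median of 0.96, and the median was -0.03 on day 5. Cd3g was at 1.28 and Cd8a at 0.96 on day 3. T cells carry class I molecules, and the part of these cells in the day 3 ratios of H2-K1, H2-T23, B2m and Tapbp was not tested. In these bulk samples more cells of a type and more RNA per cell cannot be told apart.

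The fibroblast genes Col1a1, Col1a2 and Dcn were at -0.92, -0.74 and -0.31 on day 3 and at 4.81, 4.68 and 4.41 on day 5, and Pdgfra was not measured above background. The day 5 pair thus differed in the RNA of these fibroblast genes between deleted and control. Beside this, the member ratios were near 0 for the heavy chains other than H2-Bl. They were above 0 for Tap1, Psmb9, the B2m probe A_52_P105594 at 0.55 and, except for 1 probe with median centring, Psmb8. Whether RNA of fibroblasts or other stromal cells has a part in those ratios was not tested. Of 6 myeloid genes, 3 were above 0 on day 3 and 5 on day 5, with medians of -0.03 and 0.37, and Lyz2 was at -1.01 and 0.46 and Adgre1 at 0.44 and 0.91. The B cell gene Cd79b was at 0.61 on day 3 and 0.33 on day 5. The 6 epithelial genes had a median of 0.40 on day 3 and 0.04 on day 5, with Krt20 at 0.96 and Krt18 at -0.12 on day 3, and 0 of 3 endothelial genes were well above background.

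The genes whose pattern over the 8 arrays was most like the members' median, among 8932 genes, were Tmem131, Tac2, Vamp7, Clec16a, Aldh3b2 and Hexim1, with Pearson's r from 0.973 to 0.979. The 8 arrays share their RNA in pairs, so this likeness rests on 4 RNA pairs and mainly on day 3. Clec16a was at 0.71 on day 3 and 0.07 on day 5, and Tmem131 at 0.55 and 0.11.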

How the data were processed

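Per the labels' protocols, total RNA was isolated with Trizol, amplified and labelled, and hybridised to two-colour Agilent 4X44K arrays. Per the file headers, the authors' scanner files were made with Feature Extraction 9.5.3.1 and hold spot intensities, background intensities, processed signals and a log10 ratio of Cy5 over Cy3. The authors deposited, in the series value table, log2 ratios of the same arrays, whose scale and direction were found by setting them against the scanner ratios (r from 0.964 to 0.999, medians from -0.02 to 0.03). The log10 ratio in the authors' files served only for that check.

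Intensities were background-corrected with normexp (offset 50) and normalised by loess in limma 3.58.1 (R 4.3.3), with control spots at weight 0 and spots marked as outliers left out. Ratios were turned by the dyes in the labels, spots of a probe were averaged, and the 2 arrays of an RNA pair were averaged to 1 replicate. A probe was tested where it was well above background on every array in at least 1 of the 2 RNAs. limma was fitted across all probes over 4 RNA pairs, with 1 term for each comparison and Benjamini-Hochberg adjustment. The fit was tested on simulated data. With 2 RNA pairs in a comparison, the number of arrays limits the precision. Whether the pairs came from separate animals is stated for the sorts alone, so p-values measure the spread between these samples. That spread was 1 estimate a probe over both comparisons, so the difference between the deletion days also enters the p-values of the sorts. Each slide held 1 RNA pair. Gene names are those of the files, updated through accessions or symbols of RefSeq and 8148 probes kept the name in the file.

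The members and all gene lists were chosen with earlier results of these data known. Every probe of every member is given in the deletion. In the sorts some probes are given only within a range or as not above background. Of each list, its counts and medians and a few genes are given. H2-T3, H2-Q5, H2-Q10, Ifngr1, Ifngr2, Socs1 and the genes of the chromosome 17 stretch were named after their values were seen. Some genes of the lists are not reported here.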

Additional observations from a re-analysis of the deposited data

Results flagged for a closer look

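These values were picked out because 13 of the 17 member probes passed limma's fit of the difference between day 3 and day 5 of the deletion, as 38.1% of all probes did. The fit set 1 RNA pair against 1, its spread came from the 2 sorts alone, and the members were selected on these ratios, so nothing is read from it and the values are a description. Day 5 minus day 3 was -6.89, -5.75 and -4.79 for the H2-Bl probes A_51_P247114, A_52_P560113 and A_52_P350519. It was -0.97, -0.93 and -0.64 for the H2-K1 probes A_51_P198434, A_52_P50496 and A_52_P474242, and -0.72 for H2-T23. For B2m it was -0.62 and -0.55 with A_51_P129006 and A_51_P129012, and for Tapbp -0.59 and -0.39 with A_51_P304500 and A_52_P684830. It was 0.64 for Tap1 and 0.74 for Psmb9, the 2 above 0 among those 13. With Feature Extraction's processed signals 3 of 17 member probes passed, with the deposited log2 ratios 2 of 13, and with ratios centred on the array median 0 of 17.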

How the results depend on the processing

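Day 3 ratios kept their sign under all 6 scaling and dye alternatives (no background subtraction, processed signals, median centring without loess, the deposited log2 ratios, and each dye orientation alone) for every probe of H2-Bl, H2-K1, H2-T23, B2m, Tapbp, Tap1 and Psmb9, and Tap2 and 1 Psmb8 probe kept it under 4. On day 5 H2-Bl, Tap1 and Psmb9 kept theirs under all 6. The B2m probe A_52_P105594 at 0.55 and the H2-K1 probe A_52_P50496 at -0.19 did so too. The remaining H2-K1, H2-T23, B2m and Tapbp probes, which were near 0, did not. On day 5 the Psmb8 probes were at -0.03 and 0.01 with median centring, which turned the sign of A_51_P345366. Under median centring 4 of the 17 day 3 ratios moved by more than the SD of the 2 arrays, and under the other 3 scalings 0 of 51 did. The median of the members in the deletion was 0.28, and 0.10 with median centring, 0.58 without day 5 and -0.04 without day 3, and in the sorts it was -0.01 to -0.05 without one sort and -0.14 with median centring. Leaving out the H2-Bl probes, which was chosen after seeing the data, gave 0.27 in the deletion and -0.02 in the sorts.

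Counts of probes called moved most. In the deletion the count was 1, and 0 without background subtraction, with median centring, with the deposited ratios, with no filter on dim probes, with each comparison fitted alone and with the deleted or GFPhi RNA in Cy3 alone. It was 2 with the brightest probe of a gene and 548 with RNA pair as a random block over 8 arrays. Leaving out one RNA pair gave 0 to 11040, the highest without day 5. In the sorts the count was 0, 689 when fitted alone, 46 with the random block, and 0 to 689 when one RNA pair was left out. Between the days it was 8806, and 1284 with processed signals, 859 with the deposited ratios, 0 with median centring, 3551 with the random block and 5679 with Cy3 alone. The cause was not tested, except that the pooled spread holds the difference between the 2 days, and a fit of the sorts alone or without either day does not. The deposited ratios hold fewer probes, 8955 tested in the deletion. The slide is the RNA pair, so a slide block was not run apart from it. With 1 RNA pair a day, no difference between the days could be fitted without the sorts. No paired analysis was run across the 4 RNA pairs, because the labels do not state any link between them. Equal replicate numbers link no samples across comparisons, and each ratio is already taken within its pair.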
